A study of Mus musculus with 8 samples.

Results

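Cytosolic ribosomal protein genes were followed in mouse bone marrow-derived macrophages that lack the Mediator kinases CDK8 and CDK19. Members were the rows whose symbol starts with Rpl, Rps or Rplp followed by a digit, together with Rpsa. Symbols with -ps, the S6 kinases (Rps6k) and Rps19bp1 were dropped. This left 93 of the 34432 rows of the deposited table, 55 of the large subunit and 38 of the small subunit, and 85 of them (51 and 34) passed the filter on low values, 10 or more in 4 or more libraries, and were tested.

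The series holds 4 CDK8CDK19KO libraries (Cdk8 flox/flox with Vav-iCre, on a Cdk19 null background) and 4 VAV-cre control libraries, labelled as the VavCre control. Both came from macrophages grown from marrow, left untreated and collected on day 7 of differentiation. The Vav promoter drives Cre in blood-forming cells, so Cdk8 was targeted before the macrophages formed, whereas a null Cdk19 allele is not limited to blood cells. The labels do not say whether the libraries of a genotype came from separate mice or cultures, so the p-values rest on a spread between libraries that may be only technical.

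A ribosome is built from 2 subunits, each of ribosomal RNA and a set of proteins that is nearly the same in every cell. The proteins are made in the cytoplasm, carried to the nucleolus and placed on the RNA, and cells usually keep their production in balance. Their mRNAs are short and abundant and begin with a run of pyrimidines, the 5′ terminal oligopyrimidine (TOP) tract, through which mTOR and LARP1 control their translation. CDK8 and its paralog CDK19 are alternative kinases of the Mediator complex, which links transcription factors to RNA polymerase II.

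Start sites are shown for members with a pyrimidine tract exactly at the annotated start, as 14 of 64 members with a promoter entry had. The windows that follow run from 40 bases before to 16 bases from the annotated start onward, taken from RefSeq on GRCm38.p6, with the pyrimidine run at the start in capitals. The first 5 belong to members that were higher in CDK8CDK19KO, and Rps6, Rps18 and Rpl15 to members that did not pass the test.
Rplp2, chr7:141447611-141447666, plus strand: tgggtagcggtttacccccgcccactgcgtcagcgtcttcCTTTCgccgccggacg
Rps21, chr2:180257339-180257394, plus strand: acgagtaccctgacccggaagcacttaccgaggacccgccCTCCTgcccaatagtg
Rps10, chr17:27635229-27635284, minus strand: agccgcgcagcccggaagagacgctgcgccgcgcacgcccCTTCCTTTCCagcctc
Rpl38, chr11:114668540-114668595, plus strand: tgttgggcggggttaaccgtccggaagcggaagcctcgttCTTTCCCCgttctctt
Rpl35, chr2:39005116-39005171, minus strand: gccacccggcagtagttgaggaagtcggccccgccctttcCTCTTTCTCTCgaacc
Rps6, chr4:86857352-86857407, minus strand: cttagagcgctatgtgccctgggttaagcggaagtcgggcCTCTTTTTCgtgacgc
Rps18, chr17:33955650-33955705, minus strand: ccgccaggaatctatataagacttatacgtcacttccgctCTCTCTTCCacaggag
Rpl15, chr14:18270971-18271026, minus strand: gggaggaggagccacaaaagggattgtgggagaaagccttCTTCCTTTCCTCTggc

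Of the tested members, 64 had promoter entries, 75 in all since some have more than 1 start. A C followed by at least 4 pyrimidines stood exactly at the annotated start in 18.7% of the members' entries, against 2.51% of all 32851 entries. A C followed by at least 6 pyrimidines lay between 20 bases before and 30 after the start in 54.7% of the members' entries and in 22.2% of all. CCGGAAG, the core of an ETS-type site, was found on either strand of the 300-base promoter in 36% and 8.86%. TATAAA in the 50 bases before the start was rare in both, at 1.33% and 2.63%. Of 14 members with the tract exactly at the start, 8 were called higher, and of the 50 without it there, 18. Over all genes tested, 22.9% were called higher. A tract near the annotated start but not exactly at it counts as absent here. A link between the tract and the call was not tested.

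Depth and identity were checked first. The libraries held 17856715 to 21353207 reads recovered from the normalized values. Depth was 20159190 to 21353207 in CDK8CDK19KO and 17856715 to 20761744 in VAV-cre (exact two-sided permutation p of the difference in depth 0.171). The 10 most abundant genes took 10.11 to 11.01% of reads in CDK8CDK19KO and 8.95 to 9.97% in VAV-cre. These shares did not overlap (exact two-sided permutation p = 0.0286). Cdk19 fell to 0.258 times the control level (adjusted p = 2.95e-08, limma), with values of 342 to 396 in CDK8CDK19KO and 1295 to 1682 in VAV-cre. Cdk8 values were 294 to 429 and 408 to 466 (adjusted p = 0.0374, limma), and they overlapped. A gene total also counts transcripts outside a floxed segment, so it is a weak check of that deletion. All 8 macrophage markers were detected in both genotypes, 3 of them higher and 5 lower, with summed values of 197672 to 215812 in CDK8CDK19KO and 282015 to 297954 in VAV-cre. The 6 erythroid markers summed to at most 6.82 in any library.

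The ribosomal protein genes together took 5.62, 5.70, 6.62 and 6.57% of all reads in CDK8CDK19KO libraries 1 to 4, and 5.84, 5.52, 5.06 and 4.55% in VAV-cre libraries 1 to 4. Libraries 3 and 4 of the double knockout stood above every control, while libraries 1 and 2 lay inside the control range, so the groups overlapped. The mean share was 6.13 ± 0.542% in CDK8CDK19KO and 5.24 ± 0.562% in VAV-cre (SD, n = 4 each), a ratio of 1.17. The subunits were close to each other, with 3.45 ± 0.279 and 2.98 ± 0.308% for the large subunit and 2.68 ± 0.262 and 2.26 ± 0.254% for the small one. In bulk RNA, more cells of a type and more RNA per cell cannot be told apart. The ribosomal protein pseudogene rows that the rule leaves out took 0.371 ± 0.0351% in CDK8CDK19KO and 0.315 ± 0.0345% in VAV-cre, a ratio of 1.18.

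**Figure D1:**
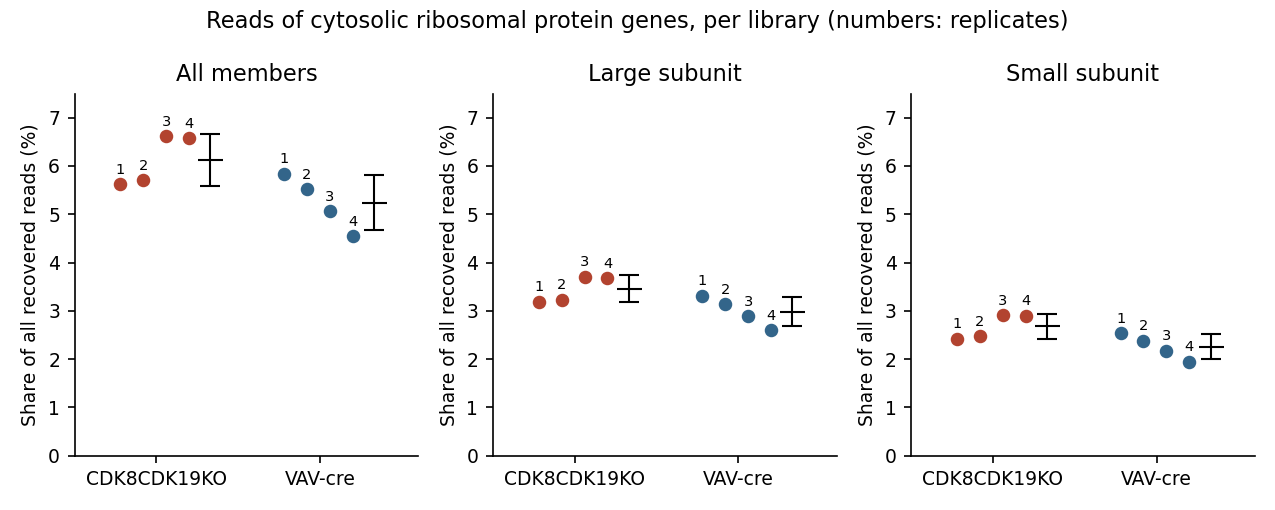
Share of all recovered reads (%) taken by the 93 ribosomal protein genes and by each subunit, in 4 CDK8CDK19KO and 4 VAV-cre libraries, each a numbered point, with the mean and SD as a bar. CDK8CDK19KO libraries 3 and 4 (6.62 and 6.57%) lie above all controls, and libraries 1 and 2 (5.62 and 5.70%) lie below VAV-cre library 1 (5.84%).

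Gene by gene, levels were compared as log2(value + 1) with limma, genotype as the only term and Benjamini-Hochberg adjustment over all 11675 genes tested. At an adjusted p under 0.05, 38 of 85 members were higher in CDK8CDK19KO (44.7%), against 22.9% of all genes tested, and 3 were lower (3.53%), against 23.8% of all genes. The median member differed by 0.24 on the log2 scale, the median gene by 0.01. A difference above 0 was found for 76 of 85 members and for 5895 of 11675 genes. The small subunit had 19 members higher and 1 lower of 34, and the large subunit 19 higher and 2 lower of 51; the difference between subunits was not tested.

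The differences were small and many groups overlapped. Among the 38 members called higher, the log2 difference ran from 0.20 to 0.78 with a median of 0.40, and in 20 of them no library of one genotype overlapped the other. These 20 were the only ones of all 85 members with every CDK8CDK19KO library above every VAV-cre library. That share is near the 21.2% of all genes tested, so it is no result about the members. Leaving out CDK8CDK19KO libraries 3 and 4 together reduced the count of members called higher to 8, which is 9.41% of members against 15.3% of all genes in that fit. Leaving out libraries 1 and 2 raised it to 53, which is 62.4% against 18.9%. Leaving out CDK8CDK19KO library 3, library 4 or VAV-cre library 3 gave 21 each, which is 24.7% of members against 19.5 to 19.7% of all genes.

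**Figure D2:**
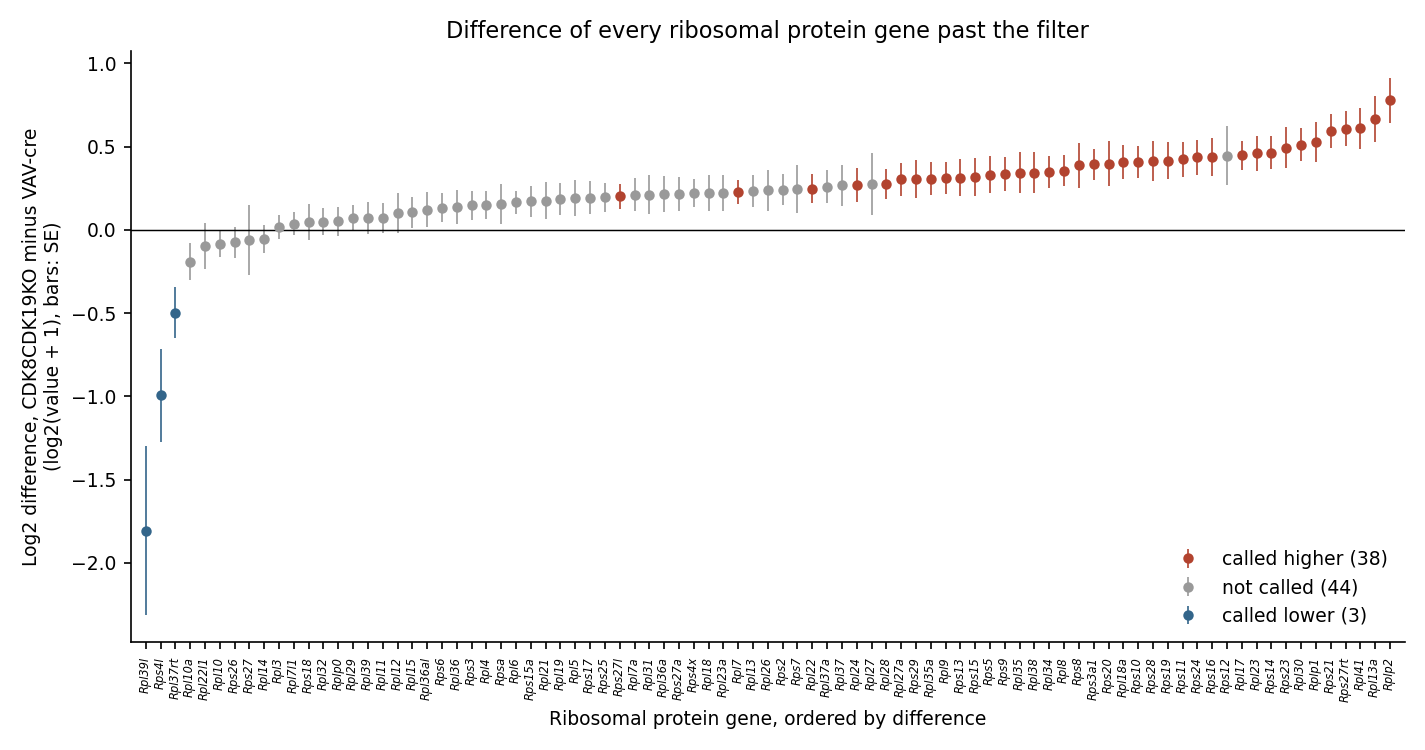
Log2 difference, CDK8CDK19KO minus VAV-cre, on the log2(value + 1) scale for each of the 85 ribosomal protein genes tested, with its SE, ordered and coloured by call. Most points lie above 0, Rplp2 is highest at 0.78, and the 3 members called lower (Rpl39l, Rps4l and Rpl37rt) stand at the left.

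The P-stalk is an arm of the large subunit that recruits the translation factors that use GTP. P0 (Rplp0) anchors it on the ribosomal RNA, and dimers of P1 (Rplp1) and P2 (Rplp2) hang from P0. All 3 proteins end in nearly the same acidic tail, which touches the factors. The last 45 coding bases, stop codon included, are shown from GENCODE M21 transcripts of the genes at chr5:115559467-115563727 (Rplp0, plus strand), chr9:61913284-61914542 (Rplp1, minus strand) and chr7:141447370-141451585 (Rplp2, plus strand), with the 32 positions shared by all 3 in capitals.
Rplp0: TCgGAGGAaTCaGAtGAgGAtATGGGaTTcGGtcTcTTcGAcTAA
Rplp1: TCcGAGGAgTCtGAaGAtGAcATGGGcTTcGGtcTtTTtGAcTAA
Rplp2: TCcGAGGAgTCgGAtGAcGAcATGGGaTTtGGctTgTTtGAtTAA

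Normalized values of Rplp2 were 12832, 11737, 15106 and 15731 in CDK8CDK19KO and 10016, 8703, 7516 and 6341 in VAV-cre. The groups did not overlap, and the rise was the largest of any member (1.71-fold, log2 0.78, SE 0.14, adjusted p = 8.79e-04, limma). Rplp1 had 23567, 23900, 32517 and 30859 in CDK8CDK19KO and 21980, 19842, 18527 and 16322 in VAV-cre, again with no overlap (1.44-fold, log2 0.52, SE 0.12, adjusted p = 0.00406, limma). Without CDK8CDK19KO libraries 3 and 4 its adjusted p was 0.0508 (limma). Rplp0 had 29764, 29898, 36552 and 36243 in CDK8CDK19KO and 34776, 33331, 30674 and 28728 in VAV-cre. Its groups overlapped widely and the log2 difference of 0.05 did not pass the test (SE 0.09, adjusted p = 0.66, limma).

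Ratios within a library take out what moves the 3 mRNAs together. They do not take out a shift that differs with transcript length. The lengths are 449 bases for Rplp2, 499 for Rplp1 and 854 for Rplp0. Rplp2 over Rplp0 was 0.431, 0.393, 0.413 and 0.434 in CDK8CDK19KO and 0.288, 0.261, 0.245 and 0.221 in VAV-cre. Rplp1 over Rplp0 was 0.792, 0.799, 0.890 and 0.851 in CDK8CDK19KO and 0.632, 0.595, 0.604 and 0.568 in VAV-cre. Neither ratio overlapped between genotypes, and CDK8CDK19KO libraries 1 and 2 too lay above every control. These genes were picked with their rises known, so the ratios are a description.

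**Figure D3:**
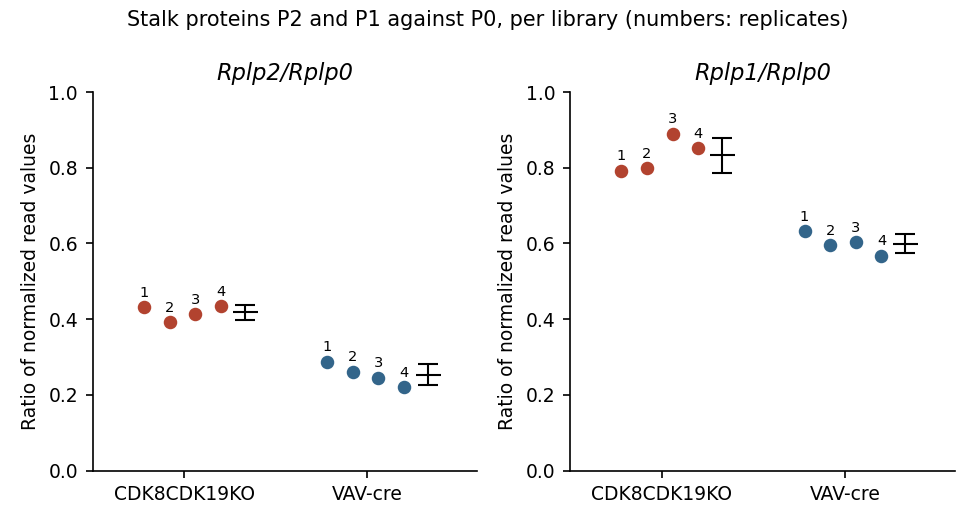
Ratios of normalized values of Rplp2 and of Rplp1 to Rplp0 in each library (numbered points), with mean and SD as a bar, CDK8CDK19KO left of VAV-cre. All 4 CDK8CDK19KO libraries lie above all 4 controls, at 0.393 to 0.434 against 0.221 to 0.288 for Rplp2 and 0.792 to 0.890 against 0.568 to 0.632 for Rplp1.

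Next to Rplp2, the largest rises were those of Rpl13a, Rpl41, Rps27rt, Rps21, Rplp1, Rpl30 and Rps23. Rpl13a, a large subunit protein also known for silencing inflammatory mRNAs in interferon-treated human monocytes as part of the GAIT complex, had 29854, 29923, 34219 and 36753 in CDK8CDK19KO and 25006, 23883, 19129 and 15526 in VAV-cre. The groups did not overlap (1.59-fold, log2 0.67, SE 0.14, adjusted p = 0.00263, limma). Per kilobase of transcript it was the highest member in both genotypes, at 66035 in CDK8CDK19KO and 42194 in VAV-cre. Rpl41, a very short and basic peptide at the interface of the subunits, had 19414, 19775, 25456 and 24723 in CDK8CDK19KO and 17624, 15064, 14000 and 11992 in VAV-cre. Every double knockout library was above every control (1.53-fold, log2 0.61, SE 0.12, adjusted p = 0.00184, limma).

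Rps21, a small subunit protein, had 10790, 11260, 13674 and 13007 in CDK8CDK19KO and 9350, 8382, 7701 and 6913 in VAV-cre, without overlap (1.51-fold, log2 0.59, SE 0.10, adjusted p = 5.29e-04, limma). Rpl30, a large subunit protein, had 14232, 14754, 17302 and 16851 in CDK8CDK19KO and 12511, 12123, 10434 and 9359 in VAV-cre, also without overlap (1.43-fold, log2 0.51, SE 0.10, adjusted p = 0.00124, limma). Rps23, which lines the decoding centre, had 13937, 13072, 16490 and 17467 in CDK8CDK19KO and 12438, 12174, 9899 and 8893 in VAV-cre. Its libraries were also apart (1.41-fold, log2 0.49, SE 0.12, adjusted p = 0.0062, limma), but the call was lost without CDK8CDK19KO libraries 3 and 4 (adjusted p = 0.0554, limma). The members called higher under all 23 other settings planned were 8: Rplp2, Rpl13a, Rpl41, Rps27rt, Rps21, Rpl30, Rpl17 and Rps14.

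Rps27rt is a copy of Rps27, and the reads of either cannot be assigned with certainty. Rps27 (chr3:90212522-90213651, minus strand) and Rps27rt (chr9:114982366-114982739, minus strand) matched at 341 of 341 aligned transcript bases. Their coding sequence of 255 bases is the same, and it is shown from GENCODE M21 with the start and stop codons in capitals.
Rps27 and Rps27rt: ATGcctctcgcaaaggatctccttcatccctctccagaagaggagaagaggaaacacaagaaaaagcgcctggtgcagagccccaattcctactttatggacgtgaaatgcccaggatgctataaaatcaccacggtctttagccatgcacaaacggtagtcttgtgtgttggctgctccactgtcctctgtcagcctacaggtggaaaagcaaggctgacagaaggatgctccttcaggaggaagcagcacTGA

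Values listed for Rps27rt were 6428, 7544, 9524 and 8080 in CDK8CDK19KO and 5749, 5214, 4815 and 4788 in VAV-cre (1.52-fold, log2 0.61, SE 0.11, adjusted p = 6.97e-04, limma). Values listed for Rps27 were 2368, 1681, 1350 and 2368 in CDK8CDK19KO and 2393, 2054, 2167 and 1414 in VAV-cre (log2 -0.06, SE 0.21, adjusted p = 0.837, limma). How reads were split between the copies is uncertain, and the ratio of Rps27rt to Rps27 ran from 2.71 to 7.05 in CDK8CDK19KO and from 2.22 to 3.39 in VAV-cre. Their sum avoids that split: it was 8796, 9225, 10875 and 10448 in CDK8CDK19KO and 8142, 7268, 6982 and 6202 in VAV-cre, without overlap. The divergent paralog Rps27l, a p53 target in human cells, shares 79.0% of aligned bases with Rps27. It had 2856, 2789, 3132 and 3023 in CDK8CDK19KO and 2869, 2661, 2420 and 2343 in VAV-cre, which overlapped (1.15-fold, log2 0.20, adjusted p = 0.045, limma), and 15 of the other settings ended that call.

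The 3 members called lower are all copies of other ribosomal protein genes. Rpl39l, a paralog of the tunnel protein Rpl39 known from male germ cells, had 2.91, 3.02, 5.002 and 12.7 in CDK8CDK19KO and 17.7, 16.4, 18.9 and 28.9 in VAV-cre. Its values were low in every library and a few reads in CDK8CDK19KO libraries 1, 2 and 3 (log2 -1.81, SE 0.51, adjusted p = 0.0122, limma). It passed the filter only through VAV-cre, where all 4 libraries reach 10, against 1 in CDK8CDK19KO, so a difference was built into its selection and its call carries no weight. No other tested member had fewer than 4 libraries at 10 or more in either genotype. Without CDK8CDK19KO libraries 1 and 2 its adjusted p was 0.0913 (limma). Rps4l, annotated as a transcribed processed pseudogene of the Rps4x kind, had 31.1, 28.1, 21.01 and 22.4 in CDK8CDK19KO and 72.7, 49.3, 53.3 and 36.6 in VAV-cre (1.99-fold lower, log2 -0.99, SE 0.28, adjusted p = 0.0123, limma), and without CDK8CDK19KO libraries 3 and 4 its adjusted p was 0.0938 (limma). Both were without overlap, as were 21.7% of all genes in that direction.

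Rpl37rt, likewise annotated as a transcribed processed pseudogene, had 752, 698, 1121 and 671 in CDK8CDK19KO and 988, 1289, 1150 and 1073 in VAV-cre. CDK8CDK19KO library 3 lay among the controls (1.41-fold lower, log2 -0.50, SE 0.15, adjusted p = 0.019, limma). It matched Rpl37 at 343 of 344 aligned bases, so its reads are uncertain too. The call was lost without CDK8CDK19KO library 2, CDK8CDK19KO library 4 or VAV-cre library 2, and without CDK8CDK19KO libraries 1 and 2 together (adjusted p 0.0528 to 0.152, limma).

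For other paralog pairs the difference between the paralogs was not tested. Rpl22, which binds RNA stem-loops and is needed for αβ T cell development, had 8377, 8551, 9489 and 9548 in CDK8CDK19KO and 8562, 7941, 7554 and 6390 in VAV-cre (1.19-fold, log2 0.25, adjusted p = 0.0377, limma). Its paralog Rpl22l1 had 515, 552, 543 and 483 in CDK8CDK19KO and 708, 625, 510 and 431 in VAV-cre (log2 -0.10, adjusted p = 0.607, limma). Both sets of values overlapped, yet the ratio of Rpl22l1 to Rpl22 was 0.0506 to 0.0645 in CDK8CDK19KO and 0.0675 to 0.0826 in VAV-cre and did not overlap. Rpl22 lost its call under 9 other settings, among them each of CDK8CDK19KO libraries 3 and 4 and VAV-cre libraries 3 and 4 left out.

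Rpl7 had 20403, 21086, 23564 and 24650 in CDK8CDK19KO and 20590, 19277, 18355 and 18296 in VAV-cre (1.17-fold, log2 0.23, adjusted p = 0.0227, limma). Its paralog Rpl7l1 had 2740, 2756, 3072 and 3000 in CDK8CDK19KO and 2986, 2992, 2659 and 2644 in VAV-cre (log2 0.04, adjusted p = 0.689, limma). The groups overlapped for both genes, yet the ratio of Rpl7l1 to Rpl7 did not overlap. It was 0.122 to 0.134 in CDK8CDK19KO and 0.145 to 0.155 in VAV-cre. The call for Rpl7 was lost under 8 other settings, among them each of CDK8CDK19KO libraries 3 and 4 and VAV-cre library 3 left out.

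Rpl36al had 4481, 4633, 5235 and 5475 in CDK8CDK19KO and 5183, 4902, 4562 and 3674 in VAV-cre. Its X-linked parent Rpl36a had 4267, 4378, 4951 and 5026 in CDK8CDK19KO and 4622, 4583, 3665 and 3308 in VAV-cre. Neither passed the test (log2 0.12 and 0.21, adjusted p = 0.372 and 0.128, limma). Rpl39, the parent of Rpl39l, had 7340, 7593, 8964 and 8662 in CDK8CDK19KO and 8662, 8412, 7393 and 6601 in VAV-cre (log2 0.07, adjusted p = 0.575, limma), with wide overlap.

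Rpl10, which joins the large subunit late in its assembly, was among the few members with a difference below 0, at 5302, 4764, 4735 and 4211 in CDK8CDK19KO and 4680, 5508, 4972 and 4982 in VAV-cre (log2 -0.09, adjusted p = 0.39, limma). Rps4x, the X-linked parent of Rps4l, had 26498, 27796, 32604 and 32206 in CDK8CDK19KO and 27542, 26946, 24867 and 22878 in VAV-cre (log2 0.22, adjusted p = 0.0511, limma), just outside the threshold and with overlap. Of the 8 members under the filter, Rpl10l, known from testis, and Rps12l1 were listed at 0 in every library. Rpl3l, known from muscle, reached at most 3.88 and the others at most 14.6.

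Of 6 members picked for roles outside the ribosome or in disease (Rpl5, Rpl11, Rps6, Rps19, Rpl13a and Rps3), Rpl13a and Rps19 were called higher. Rps19, the gene most often mutated in Diamond-Blackfan anaemia, had 14227, 14548, 17164 and 17630 in CDK8CDK19KO and 13850, 12898, 11530 and 9656 in VAV-cre, without overlap (1.33-fold, log2 0.41, SE 0.11, adjusted p = 0.00998, limma). Without CDK8CDK19KO libraries 3 and 4 its adjusted p was 0.17 (limma). Of 19 members linked to that anaemia, 7 were called higher (36.8%, against 44.7% of all members and 22.9% of all genes) and none lower (Rps19, Rps24, Rpl35a, Rps10, Rps28, Rps29 and Rpl35), with a median log2 difference of 0.24, that of all members.

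Rpl5 and Rpl11, which bind 5S ribosomal RNA and restrain MDM2 when assembly fails, did not pass the test. Rpl5 had 1090, 1228, 1248 and 1384 in CDK8CDK19KO and 1239, 1184, 893 and 1037 in VAV-cre (log2 0.19, SE 0.11, adjusted p = 0.174, limma). Rpl11 had 13356, 14255, 15805 and 15892 in CDK8CDK19KO and 15382, 15414, 13862 and 11928 in VAV-cre (log2 0.07, SE 0.09, adjusted p = 0.545, limma). Both pairs of groups overlapped. Per kilobase of transcript, Rpl5 stood at 860 in CDK8CDK19KO and 756 in VAV-cre, and Rpl11 at 20381 and 19445. The cause of that gap was not tested, and how reads of Rpl5 were assigned is not known.

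Rps6, the substrate of the S6 kinases, had 21485, 22003, 25909 and 25696 in CDK8CDK19KO and 24001, 22859, 20806 and 19019 in VAV-cre (log2 0.13, adjusted p = 0.236, limma). Rps3, which also acts in DNA repair and with NF-κB, had 18262, 21280, 22472 and 23501 in CDK8CDK19KO and 20614, 20149, 19564 and 16786 in VAV-cre (log2 0.15, adjusted p = 0.193, limma). Rpl4, the member with the highest mean value, had 31975, 33565, 38396 and 38090 in CDK8CDK19KO and 35278, 32890, 31749 and 28084 in VAV-cre (log2 0.15, adjusted p = 0.161, limma). All 3 overlapped, with CDK8CDK19KO libraries 3 and 4 above every control.

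The members closest to 0, besides Rpl7l1, were Rpl3, Rps18 and Rpl32. Rpl3, which sits near the peptidyl transferase centre, had 17364, 18073, 19753 and 19756 in CDK8CDK19KO and 19171, 19880, 18350 and 16671 in VAV-cre (log2 0.02, SE 0.07). Rps18, of the head of the small subunit, had 12827, 13064, 15556 and 15271 in CDK8CDK19KO and 15737, 14838, 13632 and 11015 in VAV-cre (log2 0.05, SE 0.11). Rpl32 had 13330, 12986, 15052 and 14352 in CDK8CDK19KO and 15013, 14184, 12907 and 11854 in VAV-cre (log2 0.05, SE 0.08). None of the 3 double knockout groups stood clear of its controls.

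The members shared an order of libraries. In 80 of 85 members (94.1%) CDK8CDK19KO libraries 3 and 4 were both above libraries 1 and 2, against 23.9% of all genes tested. Libraries 3 and 4 were both above the highest control for 70 members (82.4%, against 28.3% of all genes). Libraries 1 and 2 were so for 20 members (23.5%, against 26.2%), and both lay inside the control range for 47 (55.3%, against 22.8%). Among controls, library 1 was the highest for 74 members (87.1%, against 28.3%) and library 4 the lowest for 81 (95.3%, against 34.4%). The median deviation from the control mean was 0.095, 0.14, 0.36 and 0.37 (log2) in CDK8CDK19KO libraries 1 to 4 and 0.19, 0.094, -0.050 and -0.24 in VAV-cre libraries 1 to 4.

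**Figure D4:**
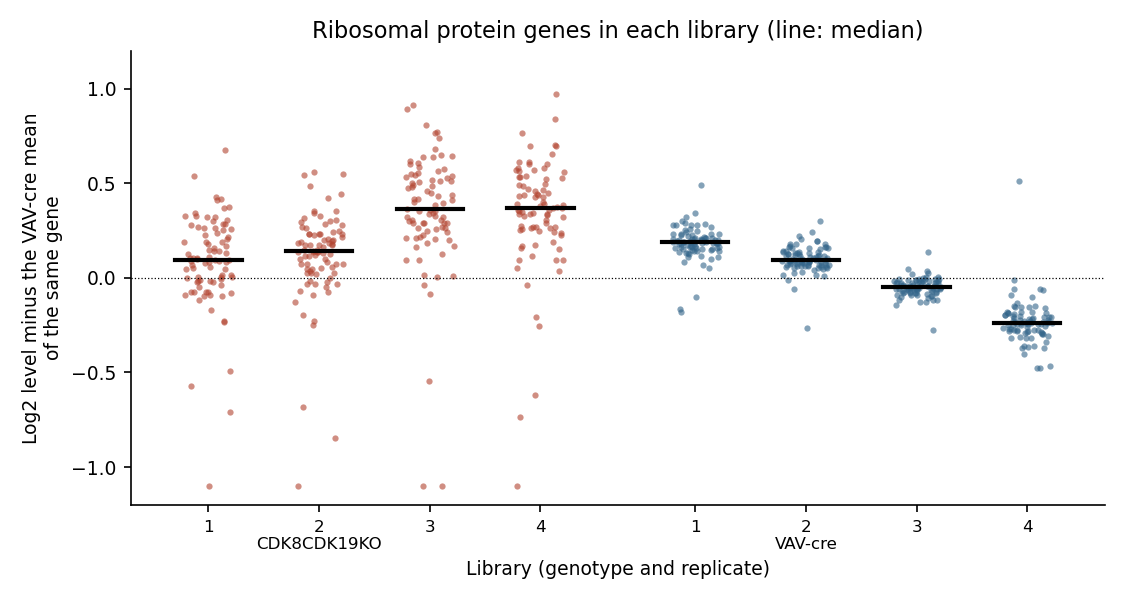
Log2 level of each of the 85 ribosomal protein genes minus its VAV-cre mean, per library (points, 5 of them drawn at the lower edge), with the median as a line. CDK8CDK19KO libraries 3 and 4 sit highest (medians 0.36 and 0.37), libraries 1 and 2 (0.095 and 0.14) lie below VAV-cre library 1 (0.19), and VAV-cre library 4 is lowest (-0.24).

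Other short transcripts also had their highest medians in CDK8CDK19KO libraries 3 and 4 and their lowest in VAV-cre library 4, over a smaller range than the members. For 467 other genes of up to 600 bases the medians were 0.12, 0.091, 0.22 and 0.18 in CDK8CDK19KO and 0.11, 0.056, -0.014 and -0.13 in VAV-cre. For 1986 genes over 4000 bases they were -0.076, -0.072, -0.18 and -0.14 in CDK8CDK19KO and -0.090, -0.054, 0.020 and 0.13 in VAV-cre. Within a length class the members lay above the rest: up to 600 bases the median log2 difference was 0.31 for 29 members and 0.11 for the other genes, and above that up to 1000 bases 0.22 for 41 members and 0.12 for the others. With a trend of level on transcript length removed in each library, 27 members were called higher (31.8%, against 23.1% of all genes in that fit) and 6 lower (7.06%, against 23.9%).

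The share of reads from mitochondrially encoded genes also differed among the double knockout libraries, at 2.60, 2.98, 4.27 and 4.19% in CDK8CDK19KO and 3.52, 3.19, 3.26 and 2.77% in VAV-cre (exact two-sided permutation p = 0.457 between genotypes). It was higher in CDK8CDK19KO libraries 3 and 4, as the ribosomal protein share was. With these genes left out of the total, the ribosomal protein share was 6.36 ± 0.617% in CDK8CDK19KO and 5.42 ± 0.596% in VAV-cre. Markers of dividing cells summed to 2781 to 2975 in CDK8CDK19KO and 19539 to 21993 in VAV-cre, with all 6 lower. Monocyte markers summed to 371 to 468 and 2226 to 2664, with 3 of 4 lower, and neutrophil markers to 450 to 730 and 1915 to 3373, with all 7 tested lower. The part of these differences in the ribosomal protein values was not tested.

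Members were also compared with each other, by scaling each library to its own summed ribosomal protein level, a setting chosen after the data had been seen. This asks how the mRNAs share out the total. With limma, 7 of 85 members were then higher (8.24%, against 6.70% of all genes) and 11 lower (12.9%, against 32.3%). The share higher is close to that of all genes, so the count is no result about the members, and the genes are given as values only. This scaling moves the median gene by -0.27. The 7 were Rplp2 (log2 0.50), Rpl13a (0.39), Rpl41 (0.33), Rps27rt (0.33), Rps21 (0.32), Rplp1 (0.25) and Rpl30 (0.23). The median transcript length was 495 bases for the 7 and 681 bases for the 11. The part of length in these differences was not tested.

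Besides Rpl39l, Rps4l and Rpl37rt, the members lower relative to the total were Rpl10a (log2 -0.47, SE 0.09, adjusted p = 0.00148, limma), Rpl22l1 (-0.37), Rps26 (-0.35), Rpl14 (-0.33), Rpl3 (-0.26), Rps18, Rpl32 and Rplp0 (-0.23 each). Rpl10a forms the stalk opposite the P-stalk, where deacylated tRNA leaves, and Rps26 lines the channel by which mRNA leaves. In the comparison across all genes these 8 did not pass the test. On the summed scale, fewer members were called in either direction without CDK8CDK19KO libraries 3 and 4. The same held without CDK8CDK19KO library 3, VAV-cre library 2 or VAV-cre library 3 alone. Without CDK8CDK19KO library 4, fewer were called lower. These changes in count are no result about the members.

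Fau and Rack1 are ribosomal proteins that carry other symbols. Fau, which encodes the small subunit protein RPS30 fused to a ubiquitin-like peptide, had 7605, 8971, 9447 and 12030 in CDK8CDK19KO and 6456, 6770, 4969 and 3851 in VAV-cre. The groups did not overlap, and the rise was of the size of that of Rplp2 (1.74-fold, log2 0.80, SE 0.19, adjusted p = 0.00592, limma). Rack1, a scaffold on the small subunit, had 21168, 21004, 24963 and 26658 in CDK8CDK19KO and 24621, 24411, 22050 and 18899 in VAV-cre (log2 0.06, adjusted p = 0.655, limma).

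Other genes of the translation machinery were counted in the same comparison. Over all genes tested, 22.9% were higher and 23.8% lower. Of 78 mitochondrial ribosomal protein genes, 20 were higher (25.6%) and 5 lower (6.41%), with a median log2 difference of 0.14. Of 66 nucleolar assembly factors, 4 were higher (6.06%) and 26 lower (39.4%), with a median of -0.19. Among them Nop58, a core protein of box C/D particles, was 2.45-fold lower (adjusted p = 8.13e-07, limma), and Sbds, which helps release EIF6 from the new large subunit, was 1.63-fold higher (adjusted p = 6.03e-05, limma). Of 50 translation factors, 9 were higher (18%) and 12 lower (24%), near the shares of all genes. Of 23 other transcripts known to carry a TOP tract, 5 were higher (21.7%) and 7 lower (30.4%). Of these, Eef1a1, the main elongation factor, was 1.14-fold higher (adjusted p = 0.0304, limma) and Npm1, a nucleolar chaperone, 1.23-fold lower (adjusted p = 0.00293, limma). The lists overlap in part, and Fau and Rack1 are also among the 23.

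**Figure D5:**
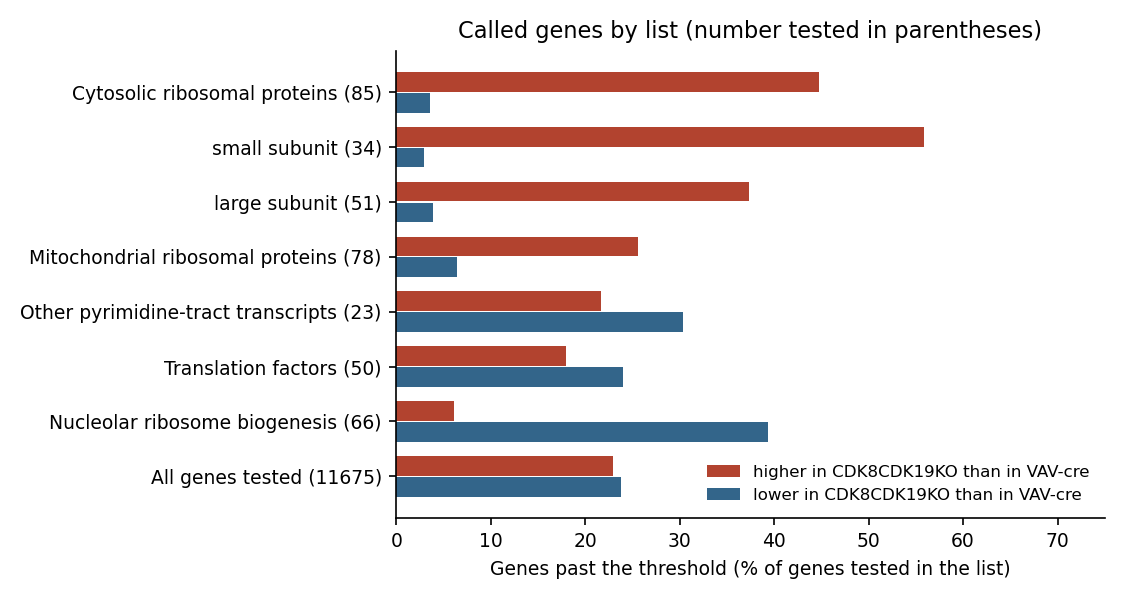
Percent of tested genes called higher (red) and lower (blue) in CDK8CDK19KO than in VAV-cre, by list, with the number tested in parentheses. Cytosolic ribosomal proteins have 44.7% higher and 3.53% lower, nucleolar assembly factors 6.06% higher and 39.4% lower, and all genes 22.9% higher and 23.8% lower.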

How the data were processed

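Polyadenylated RNA was sequenced as read pairs of 150 bases, per the labels. The submitters' processing notes name Salmon 1.4.0, DESeq2 and mm10. The gene annotation, filters and strand setting were not given in the sources used here, so reads of overlapping, antisense and near-identical genes are uncertain. The deposited values are a signal: 1 normalized value per gene and library, made by the authors. In every library 100% of values were whole reads times a library constant (tolerance 0.01), and the recovered reads served for depth and shares and as alternatives with edgeR 4.0.16 and DESeq2 1.42.0.

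The filter kept genes at 10 or more in 4 or more libraries. The test was that of limma 3.58.1 (R 4.3.3; trend and robust options, two-sided, genotype only) on log2(value + 1), adjusted by the Benjamini-Hochberg method, threshold 0.05. Fold changes share that scale and are too small for low genes. The genotype in the titles gave the groups. Single values per library were compared over the 70 regroupings of 4 against 4.

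All 93 members matched GENCODE M21 (GRCm38) by identifier. Named members were the 8 largest rises and all falls with a mean of at least 50, the stalk proteins, divergent paralogs with their parents, members with roles outside the ribosome, the highest and lowest means and the 4 smallest differences. Rpl17, Rps14, Rpl10a, Rps26 and Rpl14 were added after their values were seen. Members and gene lists were chosen with earlier results of these data known. Same-numbered libraries did not deviate together (correlations -0.0535 to 0.0316), which cannot settle whether the numbers pair them. The main fit treats them as unpaired. Alternatives were other pseudocounts, filters, scalings, tools, a replicate block, left-out libraries and removal of a length trend. A further gene of the lists is not reported here.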

Additional observations from a re-analysis of the deposited data

Results flagged for a closer look

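In 106 groups of 4 libraries, made of the named members, their ratios and the shares of reads, 2 held a library far from the other 3 of its genotype; chance sets apart about 1 group in 20. The ratio of Rpl39l to Rpl39 was 0.00146 in CDK8CDK19KO library 4 and 0.000397 to 0.000558 in the other 3 CDK8CDK19KO libraries, where Rpl39l had a few reads. The ratio of Rpl7l1 to Rpl7 was 0.155 in VAV-cre library 2 and 0.145 in each of the other VAV-cre libraries.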

How the results depend on the processing

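In the main fit 38 of 85 members were called higher (44.7%, against 22.9% of all genes). Without limma's trend and robust options 21 were (24.7%, against 21.5%), near the share of all genes. A replicate block also left 21 (24.7%, against 19%). With CDK8CDK19KO libraries 1 and 2 and libraries 3 and 4 averaged, 20 were called higher (23.5%, against 16.5%). Without libraries 3 and 4 together 8 were (9.41%, against 15.3%). Leaving out 1 library gave 21 to 48 higher, which is 24.7 to 56.5% against 19.5 to 22.4% of all genes. It gave 2 to 3 lower, which is 2.35 to 3.53% against 20.5 to 23.3%. The 3 called lower became 1 with a mean of at least 50 required (1.2%, against 25% of all genes). Rpl39l and Rps4l lie below that mean and were not tested in that fit. The 3 became 1 without CDK8CDK19KO libraries 1 and 2 (1.18%, against 20.7%) and 6 with the length trend removed (7.06%, against 23.9%). edgeR called 36 higher (42.4%, against 22.2% of all genes) and DESeq2 43 (50.6%, against 23.9%). Whether the numbers pair the libraries is not known, and calls lost under the block say nothing of the size of an effect.

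Scaling by the summed ribosomal protein level moved the median gene by -0.27 and gave a median member difference of -0.0405. It called 7 members higher (8.24%, against 782 genes or 6.7% of all) and 11 lower (12.9%, against 32.3% of all). Under it Rpl3 (-0.26), Rpl32 (-0.23), Rplp0 (-0.23) and Rps18 (-0.23) turned negative and were called lower. Rpl22 (-0.0313), Rpl7 (-0.0506) and Rps27l (-0.0769), called higher in the main fit, turned negative but were not called on this scale. Neither were Rpl7l1 (-0.24), Rpl11 (-0.21), Rpl39 (-0.21), Rpl36al (-0.16), Rps6 (-0.14), Rps3 (-0.13), Rpl4 (-0.13), Rpl5 (-0.0853), Rpl36a (-0.0632) and Rps4x (-0.0589), which turned negative too. In all, 42 members above 0 came to lie below it, by the downward shift that this scale gives every gene. Rpl3, Rpl32, Rps18, Rplp0, Rpl11, Rpl39 and Rpl7l1 also changed sign under other settings, with no call there. Rps27 and Rpl22l1, below 0 both in the main fit and on this scale, changed sign only under other settings, again with no call. On that scale, 3 were higher and 5 lower without CDK8CDK19KO libraries 3 and 4, and leaving out 1 library gave 4 to 7 higher and 6 to 12 lower. The cause of these shifts was not tested, beyond the fewer libraries or the changed scale themselves. With 4 libraries a group, differences of the size seen for most members lie near the spread between libraries.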

Other observations

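Genes that control or serve ribosomal proteins were also measured. Of 13 genes of TOP mRNA control, 4 were higher (30.8%) and 3 lower (23.1%) in CDK8CDK19KO, near the 22.9 and 23.8% of all genes. Larp1, which binds TOP mRNAs, averaged 2505 ± 141 in CDK8CDK19KO and 3044 ± 200 in VAV-cre (SD, n = 4 each; 1.21-fold lower, adjusted p = 0.00528, limma). The inhibitors of cap-dependent initiation Eif4ebp1 and Eif4ebp2 were 1.43-fold and 1.32-fold higher (adjusted p = 5.77e-04 and 4.04e-04, limma). Mtor averaged 546 ± 99.0 in CDK8CDK19KO and 698 ± 194 in VAV-cre and did not pass the test (adjusted p = 0.142, limma).

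Of 20 genes for ribosomal protein escort and ribosome quality control, 4 were higher and 4 lower, 20% each and also near all genes. Rps19bp1, whose product binds RPS19, was 1.39-fold higher (adjusted p = 0.0137, limma). Heatr3, an import factor of RPL5, was 1.24-fold lower (adjusted p = 0.0215, limma), and Huwe1, a ubiquitin ligase that in human cells removes unassembled ribosomal proteins, was 1.66-fold lower (adjusted p = 0.00938, limma). Tsr2, the escort of RPS26, averaged 655 ± 95.1 in CDK8CDK19KO and 641 ± 34.1 in VAV-cre.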
